A study of Homo sapiens with 22 samples.

Results

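The short arm of chromosome 12 carried 640 of the 8819 regions enriched for H3R2me2a in NT2/D1 cells (7.26%, exact Clopper-Pearson 95% interval 6.72 to 7.82). They were chosen by position, as every region of the promoter and enhancer lists on chromosome 12 with a start below 36000000 (build hg19), from lists that were themselves selected on H3R2me2a tags by the authors' peak calling. The arm was picked for its known density of regions, so that density is a description and supports nothing. The last region inside the limit was at a start of ALG10 (chromosome 12, 34174921 to 34175827, 162 tags in the tagcount column) and the first outside it at a start of its homologue ALG10B (38710325 to 38710733, 67 tags), with none between them.

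H3R2me2a is asymmetric dimethylation of arginine 2 of histone H3, a mark placed by the arginine methyltransferase PRMT6. The marked arginine sits beside lysine 4 of the same histone tail, whose trimethylation goes with active promoters, and the arginine mark is known to hinder binding of proteins that read or write that lysine mark. NT2/D1 is a human embryonal carcinoma line, pluripotent cells of a germ cell tumour that differentiate when given all-trans retinoic acid (ATRA). Gain of short-arm material of chromosome 12, often as an isochromosome, is a textbook hallmark of such tumours, and the arm holds the pluripotency genes NANOG, GDF3 and DPPA3 as well as CCND2. DNA copy number and the IgG libraries were not analysed here. Tags per region depend on how many copies of a sequence a cell holds as well as on the mark, and the part of copy number in the values below was not tested.

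The series holds 22 chromatin immunoprecipitation sequencing (ChIP-seq) samples of NT2/D1 cells, either CRISPR/Cas9 control or with CRISPR/Cas9 deletion of PRMT6, and 5 antibodies. Treated cells had 3 days of ATRA at 1 µM and the others had none. Region lists, 5 in number, belong to 2 samples, the H3R2me2a libraries of CRISPR control cells without and with ATRA, both made with a rat monoclonal antibody of the laboratory. Lists I and II are deposited with the untreated library and list III, like the promoter and enhancer lists, with the ATRA library. There was 1 library per condition, so intervals below cover counting error only, no p-value is given and differences between the arm and the rest have no replicate check. Sequencing depth is unknown, and region lists hold no expression values against which the cell type could be checked.

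Each region carries 1 or 2 tag counts, a tag being a sequenced fragment end counted inside the region. MACS tags, from the peak caller, are given for clusters I and III. The column named tagcount is given for every region, and no label or header names the library it was read in. In the arm's 21 cluster I regions tagcount was 1 to 8 tags above the MACS tags (median 4), so the columns nearly coincided in the cluster of the untreated library. Neither column is scaled, so a value is compared only within its column, or as a ratio beside the same ratio elsewhere.

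The 6 promoters below belong to promoter-class regions whose authors' transcript start was found to lie within 50 bp of the RefSeq start. Among those, theirs had the 3 highest tagcounts of cluster II and the 3 highest counts of MACS tags of cluster III. For CCND2 (654 MACS tags), LRP6 (357) and RNU4-67P (342), also of cluster III, no start could be compared. They were left out for that reason and not for distance. USP5 encodes a deubiquitinase, WNK1 a kinase that controls ion cotransporters, HIST4H4 a histone H4, APOLD1 an apolipoprotein L domain protein and KIAA1551 (RESF1) a factor of retroelement silencing. Each runs from 250 bases before to 50 after the RefSeq start on GRCh38.p14, 5′ to 3′ on the gene's strand. Capitals mark matches, on either strand, to the GC box GGGCGG, the CCAAT box CCAAT and the letters TATAAA of the TATA box.
USP5 (cluster II, tagcount 1190, plus strand, chr12:6851900-6852199): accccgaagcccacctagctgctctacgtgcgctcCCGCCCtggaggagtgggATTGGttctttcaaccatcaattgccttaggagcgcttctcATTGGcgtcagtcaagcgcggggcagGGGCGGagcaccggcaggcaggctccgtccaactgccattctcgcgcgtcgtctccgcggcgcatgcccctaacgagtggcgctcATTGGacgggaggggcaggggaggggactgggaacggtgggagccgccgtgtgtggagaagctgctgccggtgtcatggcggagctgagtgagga
C12orf57 (cluster II, tagcount 602, plus strand, chr12:6943772-6944071): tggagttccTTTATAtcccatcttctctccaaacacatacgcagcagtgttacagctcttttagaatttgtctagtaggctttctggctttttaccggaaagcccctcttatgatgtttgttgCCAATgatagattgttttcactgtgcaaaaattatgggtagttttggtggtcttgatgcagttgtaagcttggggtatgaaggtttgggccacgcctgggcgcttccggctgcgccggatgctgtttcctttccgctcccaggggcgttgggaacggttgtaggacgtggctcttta
WNK1 (cluster II, tagcount 594, plus strand, chr12:752329-752628): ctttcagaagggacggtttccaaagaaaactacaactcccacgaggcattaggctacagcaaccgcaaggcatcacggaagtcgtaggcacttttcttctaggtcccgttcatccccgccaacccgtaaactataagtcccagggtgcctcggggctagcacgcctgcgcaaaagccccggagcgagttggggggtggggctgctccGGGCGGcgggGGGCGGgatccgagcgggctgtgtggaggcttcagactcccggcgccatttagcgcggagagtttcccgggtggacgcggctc
HIST4H4 (cluster III, 565 MACS tags, minus strand, chr12:14771082-14771381): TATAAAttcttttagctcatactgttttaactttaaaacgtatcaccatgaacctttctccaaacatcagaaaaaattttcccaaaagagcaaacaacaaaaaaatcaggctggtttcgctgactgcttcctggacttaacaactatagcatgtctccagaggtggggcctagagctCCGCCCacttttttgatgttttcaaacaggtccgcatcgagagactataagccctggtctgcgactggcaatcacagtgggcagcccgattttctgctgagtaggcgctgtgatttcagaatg
APOLD1 (cluster III, 381 MACS tags, plus strand, chr12:12725667-12725966): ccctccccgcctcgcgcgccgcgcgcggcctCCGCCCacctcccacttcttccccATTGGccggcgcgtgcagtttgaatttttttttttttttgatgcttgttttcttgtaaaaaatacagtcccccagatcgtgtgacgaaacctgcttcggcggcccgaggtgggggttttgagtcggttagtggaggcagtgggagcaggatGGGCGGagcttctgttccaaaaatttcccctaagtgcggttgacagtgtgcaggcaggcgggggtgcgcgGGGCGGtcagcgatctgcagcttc
KIAA1551 (cluster III, 329 MACS tags, plus strand, chr12:31959165-31959464): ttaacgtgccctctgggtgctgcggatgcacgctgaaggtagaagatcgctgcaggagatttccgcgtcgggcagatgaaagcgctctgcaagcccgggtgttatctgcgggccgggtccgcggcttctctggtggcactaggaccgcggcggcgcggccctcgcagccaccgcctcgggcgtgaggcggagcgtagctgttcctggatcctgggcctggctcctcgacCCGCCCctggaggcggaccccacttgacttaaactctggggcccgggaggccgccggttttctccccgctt
The USP5 window held 3 CCAAT boxes and 2 GC boxes, that of WNK1 2 GC boxes and that of APOLD1 3 GC boxes and 1 CCAAT box. The windows of HIST4H4 and C12orf57 were poorer in G and C (43.3% and 48.0%) and were the only ones of the 6 with the letters TATAAA. Those matches begin at bases 1 and 10 of the windows, far upstream of where a TATA box works, and are matches of letters only. Among all 15841 RefSeq promoters of protein-coding genes, a GC box was present in 58.5%, a CCAAT box in 36.4% and TATAAA, anywhere in the window, in 9.63%. The nuclear receptor motif AGGTCA, present in 11.7% of all promoters, was in none of the 6.

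Promoters on the arm that carried regions were like promoters at large in base composition, and those that no region names were poorer in G and C. All 15841 protein-coding promoters had a median of 62.7% G and C and 22 CpG dinucleotides, and the 208 of the arm 56.5% and 16. Of 125 protein-coding genes with a promoter-class region within 1 kb of a start, 97 had a promoter in the RefSeq table. The 76 promoters with a cluster III region and none of cluster II had a median of 62.8% G and C and 25 CpG dinucleotides. The 20 with a cluster II region had 62.2% and 22.5, close to the cluster III set. The 80 promoters of genes that no region of the arm names had 45.2% and 4. A GC box was present in 68.4% (56.7 to 78.6) of the cluster III promoters, in 65.0% (40.8 to 84.6) of the cluster II promoters and in 25% (16.0 to 35.9) of those not named. The letters TATAAA were in 6.58% (2.17 to 14.7) of the cluster III promoters, 15% (3.21 to 37.9) of the cluster II promoters and 21.3% (12.9 to 31.8) of those not named, with intervals that overlap.

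Regions lay all along the arm and thinned out abruptly past its end. They numbered 18.7 per Mb over the 34.18 Mb up to the last region, against 4.10 per Mb over the long arm from its first to its last region, a ratio of 4.56 (4.02 to 5.19). They covered 0.520 Mb, or 1.52% of that stretch, against 0.228% of the long arm. The excess was not the same for each kind of region. Enhancer-list regions were 5.94 times as dense as on the long arm and promoter-list regions 3.32 times. Intronic regions were 7.67 times and intergenic regions 3.72 times as dense. By cluster the ratio was 1.53 for cluster II and 5.53 for cluster III. Cluster I had a ratio of 11.7, from 21 and 5 regions.

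**Figure D1:**
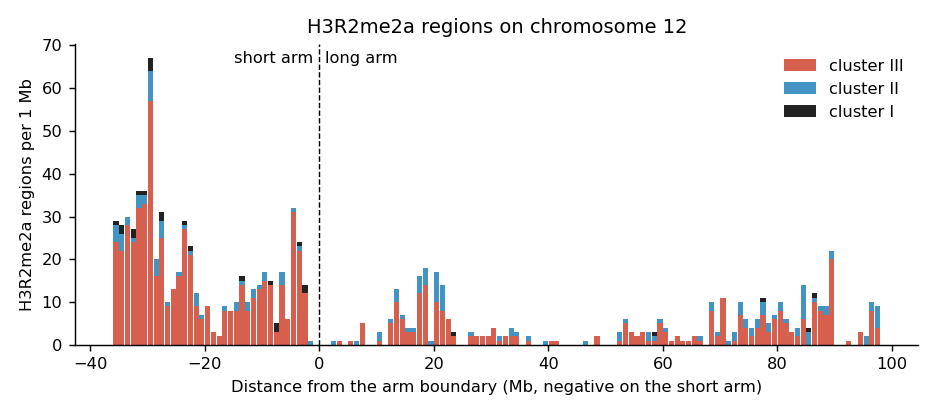
Number of H3R2me2a regions in each 1 Mb bin of chromosome 12 (y axis) by distance of the bin from the 36 Mb arm boundary (x axis, Mb, negative on the short arm). Bars are stacked by cluster, and the fullest short-arm bin holds 67 regions while no long-arm bin holds more than 22.

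In 1 Mb bins the arm held between 1 and 67 regions (median 15), and the long arm a median of 3 and at most 22. Bins without a region were left out, so the long arm's median is that of its filled bins only. Of the 34 fullest of all 1899 bins with a region (rank 30 or better, ties included), 12 were on the arm. The bin from 6 to 7 Mb was the fullest of all, and the next outside the arm held 43. It held 67 regions that named 34 genes, 38 of them promoter class, among them those of GAPDH, CHD4, USP5 and TPI1. The emptiest full bins lay between 17 and 19 Mb, with 3 and 2 regions. Regions of the arm were also close together. The nearest other region was within 10 kb for 365 of 640 (57%, 53.1 to 60.9), against 107 of 390 on the long arm (27.4%, 23.1 to 32.2). Joining intervals less than 10 kb apart left 408 separate stretches on the short arm and 327 on the long arm.

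Genes of the arm were named often. By the authors' nearest-transcript names, 174 of its 288 protein-coding genes had a region (60.4%, 54.5 to 66.1). The long arm had 222 of 736 (30.2%, 26.9 to 33.6) and the other chromosomes 4076 of 19032 (21.4%, 20.8 to 22). For enhancer-class regions the arm's share was 32.6% (27.3 to 38.4), beside 8.02% (6.16 to 10.2) on the long arm and 6.88% (6.53 to 7.25) on the other chromosomes. For promoter-class regions it was 46.2% (40.3 to 52.1), beside 23.5% and 15.8%. Per protein-coding gene there were 2.22 regions on the arm, 0.530 on the long arm and 0.409 on the other chromosomes.

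The arm's regions came mostly from cluster III, the list deposited with the ATRA library, and seldom from cluster II. Cluster III made up 563 of 640 (88.0%, 85.2 to 90.4), against 72.6% (67.8 to 76.9) on the long arm and 72.8% (71.8 to 73.8) of all 8179 other regions. Cluster II made up 56 (8.75%, 6.68 to 11.2), against 26.2% (21.9 to 30.8) and 25% (24.0 to 25.9). Cluster I gave 21 (3.28%, 2.04 to 4.97), against 1.28% (0.418 to 2.97) and 2.21% (1.91 to 2.56). Across the 21 other chromosomes with at least 50 cluster III regions, the cluster II share ran from 15.1% on chromosome 13 to 56.6% on chromosome 19, above the arm's share in each. Each was taken whole, so other single arms or stretches were not compared.

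Promoter-class regions were a smaller part of the arm than of the rest. They were 245 of 640 (38.3%, 34.5 to 42.2), against 52.6% (47.5 to 57.6) on the long arm and 48.8% (47.7 to 49.9) of all other regions. Introns held 34.1% (30.4 to 37.9) of the arm's regions and 22.1% (21.2 to 23.0) of the others, and intergenic sequence 14.2% (11.6 to 17.2) and 17.8% (17.0 to 18.6). Low cluster II shares were seen in both classes. Cluster II was 13.5% (9.46 to 18.4) of the arm's promoter-class regions, against 36.8% (35.3 to 38.4) of the others, and 5.82% (3.73 to 8.61) of its enhancer-class regions, against 13.7% (12.6 to 14.7). Within 1 kb of a start lay 39.1% (35.3 to 43.0) of the arm's regions and 51.4% (50.3 to 52.5) of the others.

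**Figure D2:**
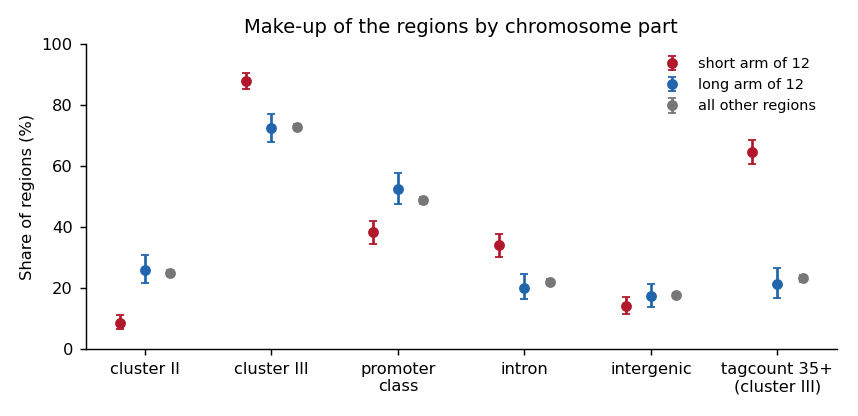
Share of regions (y axis, %) in cluster II, in cluster III, of promoter class, in introns, in intergenic sequence and, among cluster III regions, with tagcount of 35 or more, for the short arm of chromosome 12 (red), its long arm (blue) and all regions outside the short arm (grey, which include the long arm). Bars are exact 95% intervals, and the short arm is below the others for cluster II (8.75%) and above them for tagcount of 35 or more (64.7%).

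Cluster III regions of the arm were wider and held more tags than elsewhere, and the 2 tag columns lay closer together. Their median of MACS tags was 68 (63 to 72, range 30 to 670), against 49 (48 to 50) in all other cluster III regions, and their median width 694 bp (658 to 734) against 506 (502 to 510). MACS tags per kb of region were nearly equal, at 97.6 (95.6 to 99) and 97.3 (96.5 to 98.0). Tagcount was higher on both scales, with a median of 43 tags (41 to 47) against 23 (23 to 24) and 65.5 per kb (62.9 to 67.3) against 45.5 (44.6 to 46.2). No cluster III region of the arm had a tagcount under 10, and its lowest value was 11. Elsewhere 607 of 5956 (10.2%, 9.43 to 11.0) were under 10. A tagcount of 35 or more, the lowest value seen in cluster II, was reached by 364 of the 563 (64.7%, 60.5 to 68.6), against 23.3% (22.2 to 24.4) elsewhere. A share of 6.75% (4.82 to 9.15) had a tagcount at or above its MACS tags, against 1.16% (0.902 to 1.46) elsewhere.

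**Figure D3:**
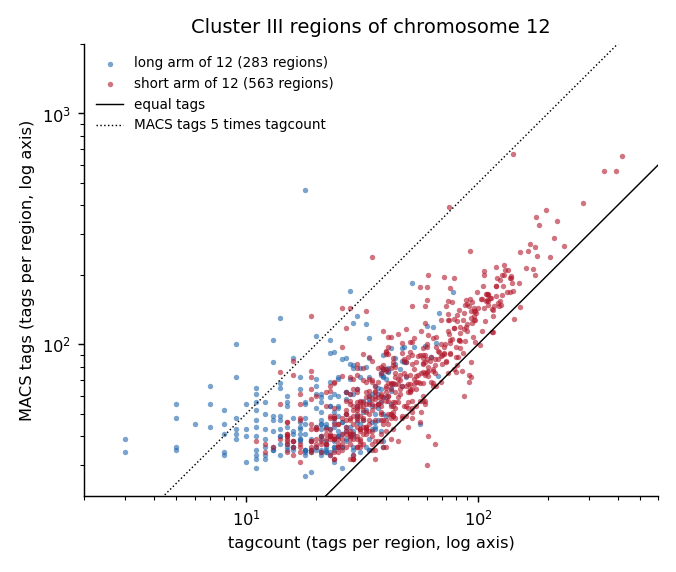
MACS tags (y axis) against tagcount (x axis) for each cluster III region of chromosome 12, both per region and on log axes, red for the 563 regions of the short arm and blue for the 283 of the long arm. The solid line marks equal tags and the dotted line MACS tags at 5 times tagcount, and short-arm regions lie mostly near the solid line, with medians of 68 MACS tags and 43 tagcount tags.

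The ratio of MACS tags to tagcount plus 1 had a median of 1.49 on the arm (1.44 to 1.53) and 2.05 in all other cluster III regions (2.03 to 2.08). The long arm, at 2.04, was like the rest. The 21 other chromosomes ran from 1.76 on chromosome X to 3.00 on chromosome 10, so the arm was below each of them. Those were whole chromosomes, and their single arms were not compared. The lower ratio was seen for promoter-class regions (1.41 against 1.75), for enhancer-class regions (1.57 against 2.69), in introns (1.70 against 2.75) and in intergenic sequence (1.55 against 2.70). It was also seen at each tag level. Below 50 MACS tags the medians were 1.43 and 1.94, from 50 to 99 they were 1.49 and 2.08, and at 100 or more 1.5 (1.43 to 1.56) and 2.97 (2.73 to 3.39). Regions with 100 or more MACS tags thus had the widest gap in ratio of these 3 levels. MACS tags are the numerator of the ratio, so the levels themselves select on it. The top level held 27.5% of the arm's cluster III regions and 8.56% of the others. Its wider gap is therefore partly built in. In 5 Mb bins with at least 20 cluster III regions the median ratio ran from 1.37 to 1.70 over the 7 bins of the short arm and from 1.75 to 2.47 over 7 of the long arm, without overlap. Median tagcount ran from 28.5 to 58 and from 17 to 28 in the same bins.

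**Figure D4:**
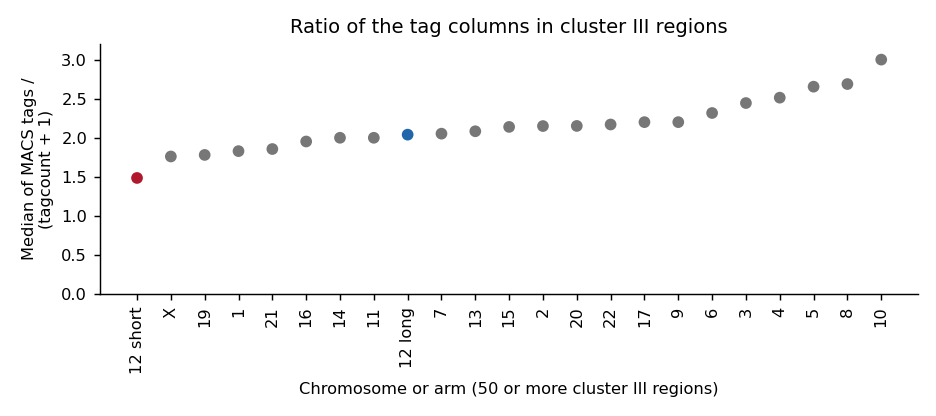
Median ratio of MACS tags to tagcount plus 1 in cluster III regions (y axis) for the short arm of chromosome 12 (red), its long arm (blue) and each other chromosome with at least 50 such regions (grey), in rising order. The short arm is lowest at 1.49, the long arm is at 2.04 and the highest, chromosome 10, is at 3.00.

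Only 7 of the 563 cluster III regions (1.24%, 0.501 to 2.54) had MACS tags at least 5 times tagcount, where the share over all 6519 cluster III regions was 11.8%. All 7 were enhancer class, and 6 were intronic. The highest ratio, 6.65, was in an intron at RP11-59N23.3 (21819567 to 21820204), with 133 MACS tags and a tagcount of 19. A pair of regions near AC087237.1 stood out by size as well. The first (20114774 to 20115846) had 239 and 35 tags, a ratio of 6.64. The second (20122245 to 20125192) had 670 and 142, which is the most MACS tags on the arm and a ratio of 4.69. The region 18627 bp from a start of the histone H3 variant gene H3F3C (31925728 to 31927387) had 394 and 75, and an intronic region of SOX5 had 143 and 28. At RP11-444D3.1 an intronic region had 143 and 26, a ratio of 5.30. The lowest ratios, with fewer MACS tags than tagcount, were at C1R, a complement protease gene (30 and 60 tags), at GALNT8 (37 and 65) and in an intergenic region from 8058058 to 8058530 (40 and 61).

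The promoter regions with most MACS tags were wide. That of CCND2, the cyclin D2 gene (4378428 to 4383643), was the widest of the arm at 5216 bp, with 654 MACS tags and a tagcount of 418. GAPDH, a glycolytic enzyme gene (6642125 to 6645140), had 565 and 349, and HIST4H4 (14921894 to 14924585) had 565 and 395. YARS2, which encodes a mitochondrial tyrosyl-tRNA synthetase, had 410 and 283 over 3469 bp. APOLD1 (381 and 197), LRP6, a WNT coreceptor gene (357 and 178), and KIAA1551 (329 and 184) followed. An intergenic promoter-class region named RNU4-67P (25537846 to 25539955) had 342 and 219. Ratios of these 8 regions lay between 1.43 (HIST4H4) and 1.99 (LRP6), all above the median of 1.41 of the arm's promoter-class cluster III regions. The 8 were picked for their MACS tags, which are the numerator of the ratio, so a raised ratio is partly built in.

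In cluster II the highest tagcount values of the arm were at promoters. After USP5 (6961141 to 6962531, 1190 tags), C12orf57 (7052170 to 7054576, 602) and WNK1 (861031 to 862039, 594) came an enhancer-class region at RP11-320N7.2 (345), the promoters of RP4-761J14.8 (305), AMN1 (295), DDX47, an RNA helicase gene (253), and KIAA1467 (249), an enhancer-class region upstream of GNAI2P1 (249) and the promoter of DNM1L, a mitochondrial fission gene (239). The 56 cluster II regions had a median tagcount of 107.5 (78 to 162), against 69 (66 to 71) elsewhere, and a median width of 772 bp (669 to 982) against 517 (510 to 525). Tagcount per kb was 134 in both, so the higher tag counts went with wider regions.

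The 21 cluster I regions were small, with 31 to 61 MACS tags and 306 to 664 bp, and 11 of them were intronic. The strongest was in an intron of ETV6 (12007102 to 12007727, 61 MACS tags), followed by a promoter-class region at RP11-843B15.2 (56) and an intronic region of ST8SIA1 (54), the ganglioside GD3 synthase gene. Others lay in introns of CD9, a tetraspanin gene (49), SCNN1A, a sodium channel subunit gene (47), and ERC1 (40), and at starts of PTHLH, which encodes parathyroid hormone-like hormone (39), SLC6A12 (37), SMCO2 (36) and PIANP (35). The rest were named A2ML1-AS2 (48), A2ML1-AS1 (44), RP11-592H6.3 (44), RP11-993B23.1 (41), RNU6-400P (37 and 34), RP11-320N7.2 (36), LINC00942 (35), KIAA1467 (33) and TSPAN9-IT1 (31), and an upstream region from 3154363 had 35. Their median of 39 MACS tags was close to the 40 of the other 181 cluster I regions.

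The 640 regions used 303 gene names, of which 160 had 1 region, 75 had 2 and 68 had 3 or more. ETV6, an ETS-family repressor gene, led with 17 regions (11801935 to 12038542), 15 of them enhancer class and 15 of cluster III, with 32 to 137 MACS tags in the 16 that carry them. SOX5, a neural and cartilage factor gene, had 12, of which 4 were cluster II, and its 8 cluster III regions had a median ratio of 2.44, above that of the arm. NTF3, the neurotrophin-3 gene, and PKP2, a desmosome gene, had 9 each. CACNA1C, an L-type calcium channel gene, DUSP16, a MAP kinase phosphatase gene, ST8SIA1 and TMTC1 had 8 each. Y_RNA, a name shared by many copies, had 11.

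**Figure D5:**
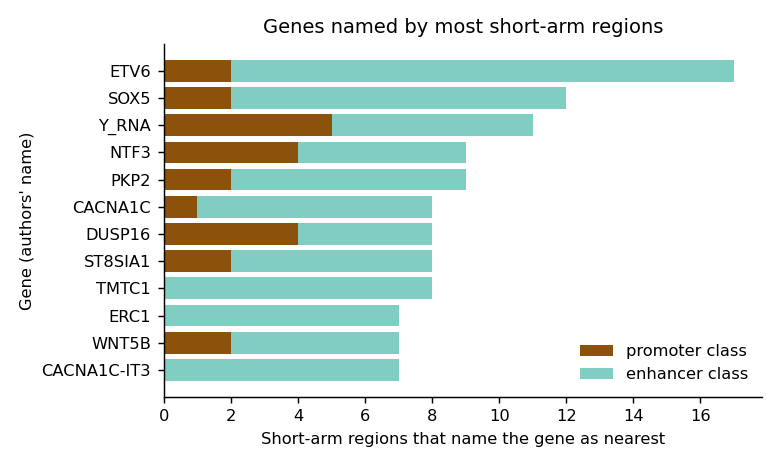
Number of short-arm regions (x axis) that name each of 12 of the most often named genes (y axis) as nearest, stacked by promoter class (brown) and enhancer class (green). ETV6 leads with 17 regions, 15 of them enhancer class, while NTF3 and DUSP16 have 4 promoter-class regions each.

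NTF3 and CCND2 had many regions each but unlike tag values. The 9 NTF3 regions lay between 5539073 and 5646543. Going downstream, the 8 of cluster III had 62, 56, 45, 33, 49, 32, 44 and 72 MACS tags. Their tagcounts in the same order were 51, 44, 39, 29, 47, 36, 50 and 93. The last 3 thus had more tagcount than MACS tags, with a lowest ratio of 0.766. The 7 CCND2 regions, all of cluster III, ran from 4333617 to 4400257 with 47, 34, 170, 654, 102, 71 and 254 MACS tags. Their tagcounts were 28, 19, 141, 418, 51, 34 and 164. Each of them had more MACS tags than tagcount, and the ratios ran from 1.20 to 2.03.

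The gene lists below were drawn up by role or by place on the arm, with earlier results of these data known, so their counts are a description. Over the arm as a whole 60.4% of protein-coding genes were named and the median cluster III ratio was 1.49. Of 24 cell cycle, DNA repair and cancer genes 19 were named (79.2%), 15 of them by promoter-class regions, with 63 regions in all and a median ratio of 1.54. Promoter regions of RAD52, a recombination gene (200 MACS tags, tagcount 129), and FOXM1, a mitotic transcription factor gene (185 and 150), were among the stronger ones. CDKN1B, which encodes the cell cycle inhibitor p27, had a pair of promoter regions with 71 and 97 MACS tags. ERC1 had 7 regions, all enhancer class, and WNK1 had 5.

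Of 30 genes listed for the glycolysis and housekeeping block 25 were named (83.3%), and 39 of their 49 regions were promoter class, beside 38.3% over the arm. The list also holds neighbours of other function, such as CD4, LAG3 and PTPN6, so its values are not those of housekeeping genes alone. ATN1, the atrophin-1 corepressor gene, had 5 promoter-class regions from 7033439 to 7048360, with 114, 127, 66 and 126 MACS tags in the 4 of cluster III and a tagcount of 211 in that of cluster II. TPI1, a glycolytic enzyme gene, had 4 promoter-class regions in a row from 6976122 to 6980610, with 156, 68, 104 and 100 MACS tags. LDHB, a lactate dehydrogenase gene on the list that lies elsewhere on the arm (21795927 to 21811158), had 4 regions, the strongest at its start with 179. The median ratio of the list was 1.37. The largest cluster of neighbours on the arm, 10 regions each less than 10 kb from the next, spanned 40269 bp at MLF2, PTMS, LAG3 and CD4 (6861273 to 6901541).

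Of 26 chromatin and transcription factor genes 23 were named (88.5%), 21 of them by promoter-class regions. Besides ETV6 and SOX5, PRMT8, which encodes a membrane-bound relative of PRMT6, had 4 regions with 114, 53, 100 and 37 MACS tags. The remodeller gene CHD4 had 3, the strongest in intergenic sequence upstream with 211, and FOXJ2 had 3, up to 154. The H3K4 demethylase gene KDM5A had a pair of intronic enhancer-class regions with 36 and 57. Another list took 20 genes from the part of the arm toward the centromere, with regions from STK38L (27396581) to ALG10 (34175827). All 20 were named, led by PKP2 (9) and TMTC1 (8), with BICD1 at 3. As the list was drawn up with these data known, that full count says nothing of how completely genes there are marked.

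Of 25 signalling genes 18 were named (72.0%), led by NTF3 (9), WNT5B (7) and CD9 (6). The WNT5B ligand gene had 5 enhancer-class and 2 promoter-class regions from 1632825 to 1739851, with up to 155 MACS tags. Of 11 ion channel genes 10 were named (90.9%), and 27 of their 37 regions were enhancer class. CACNA1C led with 8, 1 of them promoter class, and 39 to 75 MACS tags. ANO2, a chloride channel gene, GRIN2B, a glutamate receptor gene, and the calcium release channel gene ITPR2 had 5 each.

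Of 28 genes of the natural killer and C-type lectin complex 8 were named (28.6%), with 10 regions. KLRG1 had the strongest of them, a cluster II promoter region with a tagcount of 233, and GABARAPL1, a ubiquitin-like gene inside the complex, and KLRK1 had 2 regions each. Taste receptor and salivary proline-rich protein genes were named in 2 of 21 cases (PRR4 and PRB2), organic anion transporters in 1 of 5 (SLCO1A2), and genes at the complement and alpha-2-macroglobulin loci in 5 of 12. That list also holds neighbours of other function. Its named genes were C1R, C1S and A2ML1 of the families and the neighbours CLSTN3 and PEX5, the latter a peroxisomal import receptor gene.

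NANOG, GDF3 and DPPA3, the pluripotency markers on the arm, were named by no region. A name goes only to the nearest transcript, so regions in their neighbourhood may carry other names. Of the 10 genes listed for this block 5 were named. SLC2A3, a glucose transporter gene, had a cluster II promoter region (8087880 to 8089567, tagcount 200) and a cluster III region of 69 MACS tags and 69 tagcount tags. PHC1, a polycomb gene, had a promoter region of 75 MACS tags (9066409 to 9067123), FOXJ2 had 3 regions, and APOBEC1 and SLC2A14 had 1 each. The median ratio of the 7 cluster III regions was 1.22, and SLC2A14 had 69 MACS tags against a tagcount of 91.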

How the data were processed

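Members and gene lists were chosen with earlier results of these data known. The samples were ChIP-seq libraries of CRISPR control NT2/D1 cells. Labels name bcl2fastq, Bowtie2, MACS 1.4 and deepTools on hg19, per the submitters' processing notes, with no role or order. Per the file headers, the deposited tag counts are whole numbers without scaling. Each region also has a nearest transcript, its distance from that start and a class of position (windows of 1250 bp at starts and 5000 bp upstream). Cluster criteria, peak-calling control, depth and the point from which distances run were left unstated, being not given in the sources used here.

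Promoter and enhancer lists were joined to the clusters on chromosome, start and stop, and every region matched. The ratio of the tag columns had 1 added to tagcount. Shares carry exact Clopper-Pearson 95% intervals and medians exact order-statistic 95% intervals (SciPy 1.17.1), both tested on simulated data. These cover counting error only, and neighbouring regions are not independent. Densities were taken over the length up to the last region of the short arm, and over the regions' extent on the long arm. Of 303 gene names on the arm, 217 (71.6%) matched RefSeq symbols or synonyms. RefSeq and GENCODE 44 (GRCh38) gave arms, biotypes, promoters and transcript starts, and no coordinate was moved between builds. Named genes were the 10 with most regions, the 10 strongest regions of clusters III and II, all cluster I regions, the 3 highest and lowest ratios, the 5 widest regions and leading list members. Regions singled out beyond that, such as those of RAD52, FOXM1 and CDKN1B, were picked after their values were seen. The other 20 samples were not analysed here.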

Additional observations from a re-analysis of the deposited data

How the results depend on the processing

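Of 39 recomputed values, 24 stayed inside the interval of the reported value (or, for the count of bins, within 1.5 times) and 15 moved. Among the 24 is cluster II tagcount per kb (134), which has another unit than the 107.5 tags reported, so its place says nothing of stability, and on that scale the arm and the rest were level. None of the others changed direction against the rest of the series where the same setting was applied to it, but cluster III MACS tags per kb were level as well. Among regions holding the median number of tags or more, those per-kb values were lower on the arm (103 against 111). The density ratio to the long arm was 3.47 with intervals under 10 kb joined, 6.38 for regions holding the median number of tags or more and 3.29 without the first 10 Mb. For those stronger regions the promoter-class share was 44% and the share within 1 kb of a start 43.1%, against 52.1% and 54.9% elsewhere. Within 500 bp of a start lay 32.5% and within 5 kb 56.6%, against 47.4% and 64.4%. Without the first 10 Mb the median cluster II tagcount was 78.5, just inside the reported interval of 78 to 162, against 69 elsewhere. Median MACS tags of cluster III were 86 in the promoter class, 60 in the enhancer class and, in another unit, 97.6 per kb (97.3 elsewhere). The median ratio was 1.41 and 1.57 in these classes and 1.37 with 5 added to tagcount (1.77 elsewhere). MACS tags at least 3 times tagcount were seen in 4.62% and at least 10 times in 0% (0 of 563, upper exact limit 0.653%), and the latter share was 2.82% elsewhere. Leaving out ETV6, SOX5, NTF3 and PKP2 kept the density ratio, the shares by cluster III, promoter class and 1 kb and the 3 tag medians inside their intervals. The share at 5 times tagcount and the count of bins were not recomputed without them. No paired analysis was possible because each condition had 1 library and no test was made. The unknown depth limits every comparison between tag columns.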

Other observations

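Each of the 56 cluster II regions of the arm carries a second interval that overlaps the first. The second intervals of the arm were wider than elsewhere, with a median of 1229 bp (936 to 1490) against 698.5 bp (682 to 713) in the other 2042 cluster II regions. The ratio of second to first width was 1.39 (1.09 to 1.62) and 1.29 (1.27 to 1.31), with intervals that overlap. At USP5 the intervals were 1391 and 2341 bp wide, at C12orf57 2407 and 1944 bp.

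The 38 cluster III regions of the arm with a tagcount at or above their MACS tags were somewhat more often enhancer class than all 563. They lay somewhat less often in start windows, and both differences rest on small counts. Enhancer class were 28 of the 38 and 355 of the 563, and in start windows lay 12 and 231. Stretches of the arm also lay empty. The longest without a region was 805831 bp, between regions named PDE3A and SLCO1A2 (20741878 to 21547710), and the next was 718705 bp, between regions named U3 and IPO8. The longest on the long arm was 5593669 bp.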
